A study of Mus musculus with 2 samples.

Results

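The genes of the cytosolic ribosomal proteins were examined in cultured mouse chondrocytes. They were chosen by symbol alone, as all rows named Rpl or Rps with a number, with or without a closing letter a, l or x, together with *Rplp0*, *Rplp1*, *Rplp2* and *Rpsa*. This gave 80 of the 22156 genes in the table, of which 46 belong to the large subunit, 31 to the small subunit and 3 to the P stalk. A gene was tested when it had at least 10 counts over both libraries, and 77 of the 80 passed among 12431 genes in all. The 3 that did not pass were *Rps18*, *Rpl3l* and *Rpl10l*.

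The samples were chondrocytes, the cells of cartilage, taken from newborn mice aged 24 to 72 h and grown as a monolayer. The mice were on the C57BL/6J background. The control library came from mice which the labels call WT and the study's methods describe as *Myl3* flox/flox littermates. The other came from *Myl3*-KO mice, in which Cre under the *Col2a1* promoter deletes the floxed gene in chondrocytes, and nothing further was added to either culture. The sources do not give the number of animals behind each library, and *Myl3*, a myosin light chain gene, had 0 counts in both, so its own count could not check the labels.

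With 1 library per genotype no difference between genotypes could be tested. A log2 ratio below is the *Myl3*-KO count per library total over the control count per library total. Its 95% Clopper-Pearson interval covers counting error only, and a gene is called lower or higher beyond counting error when that whole interval lies on 1 side of 0. The control library summed to 17612434.91 expected counts and the *Myl3*-KO library to 13477976.98, so that the floor of 3 counts corresponded to a CPM (counts scaled to a common library size) of 0.170 and 0.223. The chondrocyte label was not borne out by cartilage genes. No count fell on *Acan*, *Matn1*, *Matn3*, *Hapln1* or *Cnmd* in either library, and *Col2a1*, the main cartilage collagen gene, had 30 counts (control) and 27 (*Myl3*-KO). *Sox9*, the transcription factor of chondrocytes, had 866 and 480. The fibroblast collagen gene *Col1a2* had 211652 and 189213. Of the 10 chondrocyte markers, 3 were tested, and their summed share of the reads was 0.00578% in the control and 0.00452% in *Myl3*-KO. The corresponding share of the 7 fibroblast markers was 1.48% and 1.69%, most of it from *Col1a2*. The markers did not go 1 way. *Dcn* went from 631 to 155 counts at a log2 ratio of -1.64, and *Lum* from 272 to 81 at -1.36. *Col1a1* (0.15), *Col1a2* (0.22) and *Pdgfra* (0.61) were higher, *Col3a1* (0.01) lay within counting error, and *Thy1* had 0 counts in both libraries. The part of these differences in the results on ribosomal protein genes was not tested. In bulk RNA, fewer cells of a type and less RNA per cell cannot be told apart.

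Ribosomal proteins coat a core of ribosomal RNA, and each ribosome carries a single copy of nearly every one of them. The small subunit reads the mRNA, the large subunit joins the amino acids and lets the new chain out through a tunnel, and the P stalk recruits the elongation factors. Their mRNAs are among the most abundant in growing cells, and most begin with a tract of pyrimidines (a 5' terminal oligopyrimidine or TOP tract) through which growth signals set how much of the mRNA is translated.

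Runs of C or T were searched for in the DNA around the start of these genes, where such a tract would lie. Start windows from RefSeq on GRCm38.p6 were matched by symbol for 60 of the 80 members, and each window ran from 40 bases before to 30 bases after the start. The windows below belong to members at both ends of the order of log2 ratios and are shown to let the runs be compared. Capitals mark the longest run of C or T of at least 8 bases, and a window without capitals holds none.

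Rpl27 (chr11:101442205-101442274, plus strand): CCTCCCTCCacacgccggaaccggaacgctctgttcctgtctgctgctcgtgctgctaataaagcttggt
Rpl41 (chr10:128549139-128549208, minus strand): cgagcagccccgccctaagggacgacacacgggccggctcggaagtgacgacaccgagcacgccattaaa
Rps27l (chr9:66946046-66946115, plus strand): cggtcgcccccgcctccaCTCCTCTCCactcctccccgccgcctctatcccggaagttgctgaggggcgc
Rpl39l (chr16:10170188-10170257, plus strand): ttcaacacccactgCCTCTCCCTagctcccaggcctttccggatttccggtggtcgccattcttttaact
Rplp2 (chr7:141447611-141447680, plus strand): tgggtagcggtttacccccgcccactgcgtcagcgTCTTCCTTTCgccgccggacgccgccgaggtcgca
Rps12 (chr10:23787180-23787249, minus strand): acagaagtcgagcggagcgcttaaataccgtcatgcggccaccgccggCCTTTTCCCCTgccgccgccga
Rpl10a (chr17:28328431-28328500, plus strand): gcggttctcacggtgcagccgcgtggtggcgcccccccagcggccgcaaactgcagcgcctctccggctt
Rpl28 (chr7:4792925-4792994, plus strand): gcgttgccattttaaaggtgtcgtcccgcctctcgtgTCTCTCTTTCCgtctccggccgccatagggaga

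A run of at least 8 C or T bases was found in 38 of the 60 member windows, or 63.3%, against 29.9% of 27025 genes with a window. On the opposite strand the share was 18.3% of members and 32.2% of all genes. In *Rpl28* and *Rplp2* the run began 3 and 5 bases before the annotated start and crossed it, and in *Rps12* it began 8 bases after it. In *Rpl27*, *Rps27l* and *Rpl39l* the run began 40, 22 and 26 bases before the annotated start and ended before it. Such a run is not part of the annotated mRNA, so a run in the window is not by itself a TOP tract. A C at the annotated start followed by 4 further C or T bases, the strict form of the tract, was present in 21.7% of members and 3.01% of all genes. The 37 tested members with a run had a median log2 ratio of -0.08 and the 20 without one a median of -0.06, so members with and without a run had nearly the same median. In the wider window of 250 bases before to 50 after the start, the letters CCGGAAG, a core of ETS family motifs, were searched on both strands and found in 41.7% of members and 9.93% of all genes. The 24 tested members with these letters had a median log2 ratio of -0.11 and the 33 without them -0.04. The letters AAGATGG, counted separately and on both strands, occurred in 15.0% of members and 7.28% of all genes.

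Ribosomal protein genes were among the most abundant transcripts of both libraries. On the FPKM scale, which divides reads by gene length and by library, members made up 54 of the 100 highest genes in the control library and 53 of those in *Myl3*-KO. The median FPKM over the 80 members was 952 in the control and 904 in *Myl3*-KO, against 11.6 and 11.8 over all genes tested. *Rplp0*, the scaffold of the P stalk, was the highest, with an FPKM of 3635 in the control and 3609 in *Myl3*-KO. *Rpl23a*, at the mouth of the exit tunnel, followed with 3220 and 3222, and *Rps24* with 2917 and 2846. These 3 kept their order in both libraries. Next came *Rps4x*, the X-linked *Rps4* gene, with 2447 and 2524, and *Rps26*, at the mRNA exit channel, with 2234 and 2090. In the large subunit *Rpl13* had 2014 and 1970, and *Rpl32* 2005 and 1891. Of the 10 highest members in the control, 9 were also among the 10 highest in *Myl3*-KO. The 44 tested large subunit genes had a median FPKM of 1136 (control) and 1069 (*Myl3*-KO), against 868 and 795 for the 30 tested small subunit genes.

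Although each protein is needed in about the same number, the FPKM values were far from equal. The quartiles of the tested members were 552 and 1461 in the control and 545 and 1452 in *Myl3*-KO, and 3 tested members lay under 100 in the control. *Rpl24*, on the large subunit, had 78 and 54 counts, an FPKM of 6.54 and 5.92. *Rpl41*, which encodes one of the smallest known proteins, had an FPKM of 50.1 and 37.4. *Rps12* had an FPKM of 110 and 114 on its own row, while *Rps12-ps3*, a copy with the same coding bases described below, had 3447 and 3384. The low value of *Rps12* thus leaves out most reads of that sequence. *Rps18*, an essential small subunit gene, had 4.52 and 3 counts in all, an FPKM of 0.49 and 0.42. The low values were shared by both libraries, and Pearson's r of log2 FPKM between the libraries was 0.999 over the 78 members above 0, as a description over genes that share the same libraries. *Rps20* had 9290 and 7318 counts but an FPKM of 142 and 147, because its count and FPKM imply a length of 3706 bases against a median of 718 bases over the 77 tested members. The FPKM of a member therefore also carries the gene model the authors used and, for a gene with copies, how reads were assigned.

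**Figure D1:**
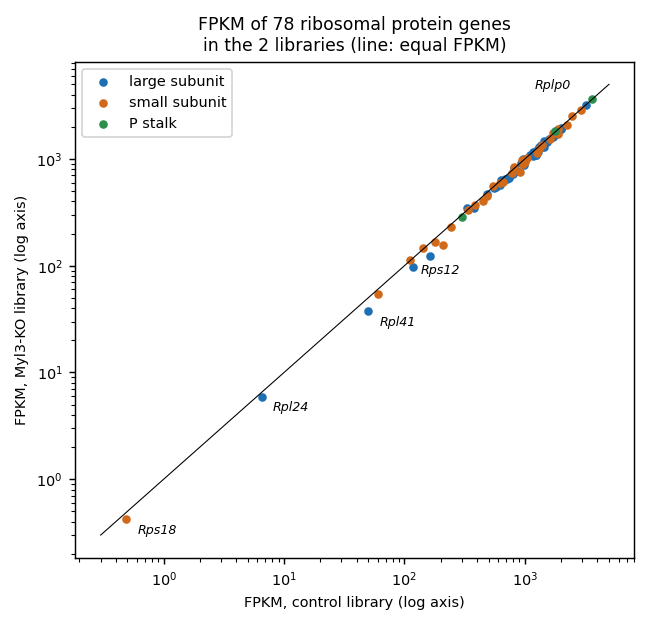
FPKM of the 78 members above 0 in the control (horizontal, log axis) and *Myl3*-KO library (vertical, log axis), 1 point per gene, coloured by subunit, with the line of equal FPKM. All points lie close to the line, and *Rps18*, *Rpl24*, *Rpl41* and *Rps12* lie below the bulk of the members in both libraries. The point of *Rps12* leaves out its copy *Rps12-ps3*.

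Relative to the library total, members were slightly lower in *Myl3*-KO, and this direction turned when members were set against other genes of like length. By counts per library total, 49 of the 77 tested members were lower beyond counting error, 63.6%, against 20.1% of all genes tested. Only 5 members, 6.49%, were higher, against 22.2% of all genes. Such a call depends on depth, and members are deeply counted. Among genes with at least 10000 counts over the 2 libraries, 63.2% of the 57 members were lower and 8.77% higher, against 48.0% and 31.1% of 421 other genes, whose median log2 ratio was -0.04 beside -0.06 for these members. The shift was small. The median log2 ratio was -0.07 with quartiles of -0.14 and -0.01, against a median of 0.02 over all genes tested, and after subtraction of the median of other genes in the same length range it was 0.06. Where a gene is called against genes of like length below, its interval was shifted by that median, taken as exact. How many other genes would be so called was not computed. Members took 6.81% of all reads in the control (95% interval 6.80% to 6.82%) and 6.56% in *Myl3*-KO (6.54% to 6.57%).

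No member differed by 2-fold in either direction, where 1.19% of all genes tested were lower and 2.16% higher by that limit. Among deeply counted genes this was the usual result. Of the 421 other genes that reached 10000 counts, 0 were lower and 0 higher by 2-fold. Of the 6385 genes that reached 1000 counts, members included, 0 were lower and 3 higher. The limit thus did not set members apart from genes of like depth. The log2 ratios of the members ran from -0.44 to 0.09, and 71 of the 77 lay within 0.2 of 0. Where a gene had at least 10000 counts in all, the SD of the log2 ratio was 0.0788 over 57 members and 0.199 over 421 other genes, so members varied less among themselves. Over the 77 members with at least 100 counts, the interval of a typical member reached 0.04 to either side. This makes a very small difference between 2 libraries visible without saying whether other mice would show it.

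**Figure D2:**
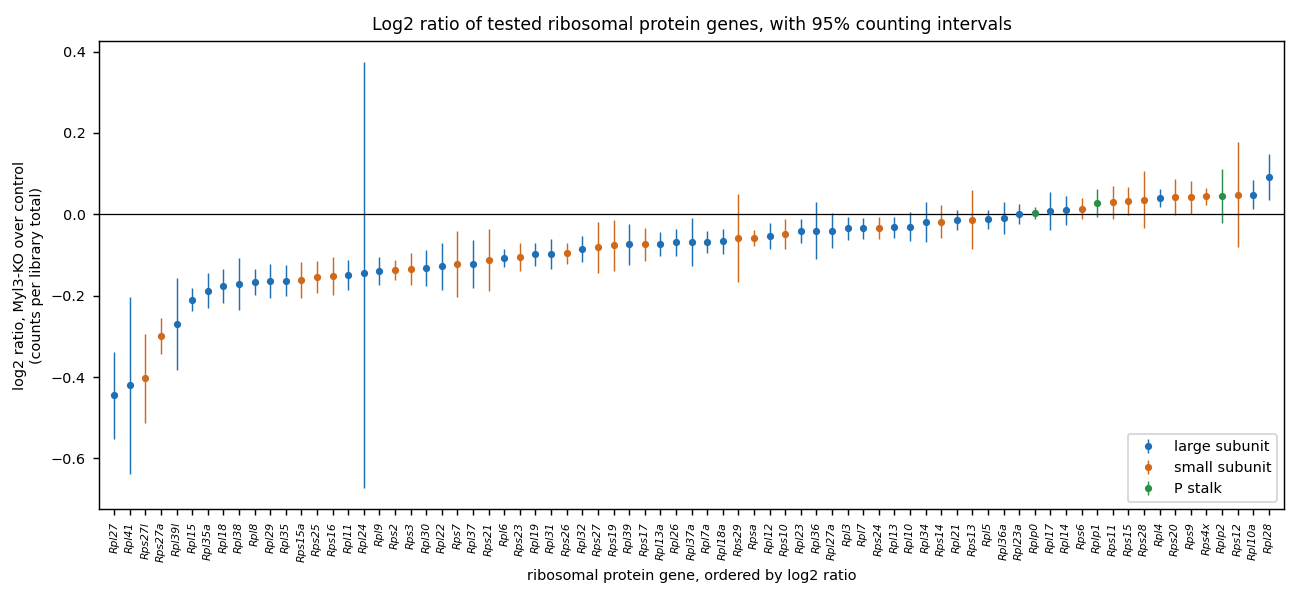
Log2 ratio of *Myl3*-KO over control (vertical) for 75 of the 77 tested members in order (horizontal), with bars for the 95% counting interval and colours for the subunit. Of all 77, 60 lie below 0 and 17 above, a balance that turns to 20 below and 57 above after subtraction of the median of other genes of like length, and *Rpl24* has the widest interval, from -0.67 to 0.37.

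Large and small subunit genes had the same median. In the large subunit 30 of 44 tested genes (68.2%) were lower beyond counting error and 3 (6.82%) higher, at a median of -0.07. In the small subunit 19 of 30 (63.3%) were lower and 2 (6.67%) higher, also at -0.07. Of all genes tested, 20.1% were lower and 22.2% higher, and of the 421 other genes with at least 10000 counts, 48.0% and 31.1%. After subtraction of the length range median both medians were above 0, at 0.05 and 0.06. Across the members the ratio followed neither length nor level closely, with a Spearman rho of 0.13 with implied length and 0.21 with control FPKM (n = 77 genes of the same 2 libraries).

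In the large subunit the lowest ratio belonged to *Rpl27*, with 1950 control and 1096 *Myl3*-KO counts and a ratio of -0.44 (95% interval -0.55 to -0.34). *Rpl41* had 481 and 275 counts and a ratio of -0.42 (-0.64 to -0.20). *Rpl39l*, a paralogue known from male germ cells, had 1648 and 1046 counts and a ratio of -0.27. On their own rows these 3 stood apart from the abundant members, whose counts were many times larger. For *Rpl27* this does not hold once its copy *Rpl27-ps3*, described below, is added. The summed counts were 13782 and 8521, at a ratio of -0.31. Of the abundant large subunit genes, *Rpl15* had 24094 and 15946 counts and a ratio of -0.21 (-0.24 to -0.18), and *Rpl35a* had 10775 and 7237 counts and a ratio of -0.19. At the other end, *Rpl28* had 5716 and 4661 counts and a ratio of 0.09 (0.04 to 0.15), the highest of all tested members. *Rpl10a*, of the L1 stalk that guides used tRNA out, had 14013 and 11086 counts and a ratio of 0.05. *Rpl4*, which lines the exit tunnel, had 39208 and 30862 counts and a ratio of 0.04, and these 3 were the large subunit genes called higher.

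The proteins around the exit tunnel did not go 1 way. Of 8 genes, 5 (62.5%) were lower, close to the 63.6% of all tested members and against 20.1% of all genes tested. These were *Rpl35* (-0.16), *Rpl19* (-0.10), *Rpl31* (-0.10), *Rpl26* (-0.07) and *Rpl39* (-0.07). *Rpl4* was higher, and *Rpl17* (0.01) and *Rpl23a* (0.00) lay within counting error. Against other genes of like length, *Rpl35* alone of the 5 stayed lower (-0.05), *Rpl19* lay within counting error (0.02), and *Rpl31* (0.09), *Rpl26* (0.11) and *Rpl39* (0.11) turned higher. The pair that binds 5S ribosomal RNA and can also bind Mdm2, the ubiquitin ligase of p53, gave unequal values. *Rpl11* had 13778 and 9509 counts and was lower, with a ratio of -0.15 (-0.19 to -0.11), whereas *Rpl5*, with 33965 and 25780 counts, had a ratio of -0.01 (-0.04 to 0.01). Against genes of like length *Rpl11* lost its call, at 0.03, and *Rpl5* became higher, at 0.07 (0.05 to 0.10). *Rpl14* (14458 and 11140 counts) and *Rpl17* (8610 and 6624 counts) both had a ratio of 0.01, and both were higher against genes of like length, at 0.10 and 0.12.

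In the small subunit *Rps27l* was lowest, with 1825 and 1056 counts and a ratio of -0.40 (-0.51 to -0.29). *Rps27a*, made as a fusion with ubiquitin, had 11083 and 6893 counts and a ratio of -0.30 (-0.34 to -0.26), the lowest among members with at least 10000 counts. *Rps15a* (10399 and 7113 counts) had a ratio of -0.16 and *Rps25*, needed for some internal ribosome entry sites, had 13145 and 9042 counts and a ratio of -0.15, and both lay within counting error against genes of like length, at 0.02 and 0.03. *Rps4x*, with 42020 and 33163 counts, and *Rps9*, with 10892 and 8581 counts, were the small subunit genes called higher, each with a ratio of 0.04. *Rps20* (0.04), *Rps28* (3702 and 2905 counts, 0.04) and *Rps12* (0.05) were as high but within counting error.

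Along the path of the mRNA, 5 of 7 genes (71.4%) were lower, against 63.6% of all tested members and 20.1% of all genes tested. Among them were *Rps2* (33065 and 23023 counts, -0.14) and *Rps3* (-0.14) at the mRNA entry, *Rps23* (-0.10) at the decoding centre, and *Rps26* (-0.10) at the exit. *Rps14* (-0.02) and *Rps28* lay within counting error. Against genes of like length *Rps2* and *Rps3* stayed lower, both at -0.05, *Rps23* lay within counting error (0.01) and *Rps26* turned higher (0.09). *Rps6*, the substrate of S6 kinase in growth signalling, had 29093 and 22481 counts and a ratio of 0.01 (-0.01 to 0.04), and was higher against genes of like length, at 0.13.

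The P stalk held its share of the reads. *Rplp0* had 84949 and 65206 counts and a ratio of 0.00 (-0.01 to 0.02). *Rplp1* had 15719 and 12257 counts and a ratio of 0.03, and *Rplp2* had 4150 and 3276 counts and a ratio of 0.04, with 0 of the 3 beyond counting error, although all 3 were higher against genes of like length, at 0.09, 0.17 and 0.16. Together they took 0.595% of the control reads (0.592% to 0.599%) and 0.599% of the *Myl3*-KO reads (0.595% to 0.603%). On the FPKM scale the log2 ratio of *Rplp2* was -0.08, so its direction depended on the unit.

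Most paralogues of members made up a smaller share of their pair in *Myl3*-KO. *Rps27l*, a p53 target, made up 27.7% of the summed counts of *Rps27* and *Rps27l* in the control (26.6% to 28.8%) and 23.4% in *Myl3*-KO (22.2% to 24.7%), and these intervals did not overlap. These shares leave out *Rps27rt*, which has the same coding bases as *Rps27*. With it *Rps27* had 6280 and 4735 counts, beside 1825 and 1056 on *Rps27l*, so the shares of *Rps27l* are then smaller. How often the intervals of other gene pairs of like depth fail to overlap was not computed. *Rpl39l* made up 18.1% of the counts of its pair with *Rpl39* in the control (17.3% to 18.9%) and 16.2% in *Myl3*-KO (15.3% to 17.1%), again without overlap. The same held for 2 paralogues whose symbols the rule left out. *Rpl36al* made up 13.8% (13.3% to 14.4%) and 12.5% (11.9% to 13.1%) of its pair with *Rpl36a*, and *Rpl7l1* 10.5% (10.2% to 10.9%) and 9.46% (9.09% to 9.83%) of its pair with *Rpl7*. *Rpl22l1* made up 15.9% and 16.0% of its pair with *Rpl22*, with overlapping intervals. *Rpl3l*, of muscle, and *Rpl10l*, of testis, had 0 counts in both libraries, which allows up to 3 counts in each.

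Some members share their sequence with intronless copies elsewhere in the genome, and the counts were split between them. The table was compared with GENCODE M21 transcripts on GRCm38 by shared words of 31 bases. *Rps12*, on chromosome 10 from 23785183 to 23787275, had 1112 and 880 counts, while *Rps12-ps3*, on chromosome 19 from 59322290 to 59322783, had 29988 and 22532. The gene itself thus held 3.58% of the summed counts in the control. *Rpl27* held 14.2% beside *Rpl27-ps3*, which had 11832 and 7425 counts. *Rpl10*, on chromosome X from 74270812 to 74273135, held 49.7% beside *Rpl10-ps3* on chromosome 9 from 50344201 to 50344968. *Rps27*, on chromosome 3 from 90212522 to 90213651, held 75.9% beside *Rps27rt* on chromosome 9 from 114982366 to 114982739.

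Over the coding part, reads from these pairs cannot be told apart by sequence. *Rps12* and *Rps12-ps3* matched in 399 of 399 coding bases, *Rpl10* and *Rpl10-ps3* in 645 of 645, and *Rps27* and *Rps27rt* in 255 of 255. The first 90 coding bases, counted from the A of the start codon and spliced from the exons of GENCODE M21, are shown for 3 members, and the capitals that would mark a difference from the copy are absent because the copy has the same 90 bases.

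Rps12: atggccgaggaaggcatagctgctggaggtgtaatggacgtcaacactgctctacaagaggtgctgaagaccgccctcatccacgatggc
Rpl10: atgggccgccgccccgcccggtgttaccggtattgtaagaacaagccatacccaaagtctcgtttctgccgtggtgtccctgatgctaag
Rps27: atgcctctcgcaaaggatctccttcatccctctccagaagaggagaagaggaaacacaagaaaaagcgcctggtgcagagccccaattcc

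When each gene and its copies were summed, the log2 ratio of *Rps12* went from 0.05 to -0.02, that of *Rpl10* from -0.03 to 0.01 and that of *Rps27* from -0.08 to -0.02, each sum within counting error. *Rpl27* stayed lower with its copy, at -0.31 (-0.35 to -0.27). A count with a fraction, as arises when a read is divided between places, was found for 21 members, 26.2%, and for 11.1% of all genes tested. The ratios of *Rps12*, *Rpl10*, *Rpl27* and *Rps27* as single genes are therefore uncertain.

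Most ribosomal protein genes that the symbol rule left out also lay below 0. *Fau*, made as a fusion with a ubiquitin-like protein, had 2259 and 1414 counts and a ratio of -0.29, and -0.12 when summed with *Gm9843*. *Rack1*, a scaffold on the small subunit, had a ratio of 0.02 and *Rps3a1* of -0.03. The paralogues *Rpl22l1*, *Rpl36al* and *Rpl7l1* had ratios of -0.12, -0.18 and -0.20, and *Rps27rt* of 0.15. Of these 8 genes, 5 (62.5%) were lower and 1 (12.5%) higher beyond counting error, against 20.1% and 22.2% of all genes tested.

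**Figure D3:**
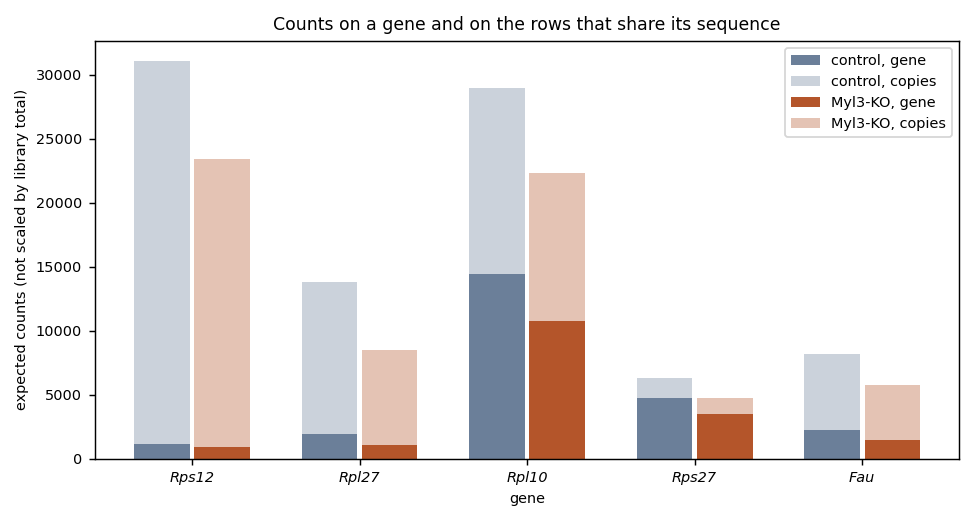
Expected counts (vertical, not scaled by library total) on 5 ribosomal protein genes (solid) and on the rows that share their sequence (pale), stacked, for the control and the *Myl3*-KO library. For *Rps12*, *Rpl27* and *Fau* most counts lie on the copies, for *Rpl10* about as many as on the gene.

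Members known from human or mouse disease were also compared. Heterozygous loss of any of 20 members causes or has been linked to Diamond-Blackfan anaemia, a failure of red cell formation. Of these, 17 (85%) were lower beyond counting error and 0 higher, at a median of -0.10. Of the 57 other tested members, 32 (56.1%) were lower and 5 (8.77%) higher, at a median of -0.05. The shares over all genes tested were 20.1% and 22.2%. After subtraction of the length range median both groups had a median of 0.06. *Rps19*, the gene most often mutated in the disease, had 4882 and 3544 counts and a ratio of -0.08 (-0.14 to -0.01), which turned higher against genes of like length, at 0.11 (0.04 to 0.17). *Rpl38* and *Rpl24* are known from mouse mutants with skeletal and tail defects. *Rpl38* had 4818 and 3273 counts and was lower, with a ratio of -0.17 (-0.24 to -0.11) that shrank to -0.03 (-0.10 to 0.03) against genes of like length, and *Rpl24*, with 78 and 54 counts, had a ratio of -0.14 and an interval that includes 0.

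Genes that build mitochondrial ribosomes or assemble cytosolic ones lay further below 0 than the members. Of 78 tested mitochondrial ribosomal protein genes, which build the ribosome that translates mitochondrial mRNAs, 42 (53.8%) were lower beyond counting error and 0 higher, at a median of -0.18. Of 42 tested ribosome biogenesis genes, which process ribosomal RNA and assemble the subunits, 34 (81.0%) were lower and 0 higher, at a median of -0.23. Of all genes tested, 20.1% were lower and 22.2% higher. *Nhp2*, of the pseudouridylation complex, had 2550 and 1350 counts and a ratio of -0.53, and *Dimt1*, a ribosomal RNA methyltransferase, had a ratio of -0.46. *Sbds* (-0.01) and *Nat10* (0.05) were the highest of that list. These lists kept their direction after subtraction of the length range median, at -0.12 for the mitochondrial genes and -0.21 for biogenesis, whereas the cytosolic ribosomal protein genes did not. The 11 genes of RNA polymerase I, which transcribes ribosomal RNA, had a median of -0.04, from *Polr1e* (-0.27) and *Polr1d* (-0.26) to *Taf1b* (0.08) and *Ubtf* (0.15). Of these, 2 (18.2%) were lower and 1 (9.09%) higher, against 20.1% and 22.2% of all genes tested, so the share of lower genes was close to that of all genes.

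Of 32 initiation factor genes, 20 (62.5%) were lower and 4 (12.5%) higher, at a median of -0.16. Of all genes tested, 20.1% were lower and 22.2% higher. *Eif4e*, which binds the mRNA cap, had 4369 and 2517 counts and a ratio of -0.41, and *Eif2s1*, of the factor that brings the initiator tRNA, had a ratio of -0.37. *Eif4g3* had 344 and 490 counts and a ratio of 0.90, and *Eif4b* a ratio of 0.20. Elongation and termination were divided, with 4 genes (50%) lower, among them *Eif5a* (-0.36) and *Etf1* (-0.26), and 4 (50%) higher, among them *Eef1a1* (0.18) and *Eef2* (0.22). The 13 other genes known for TOP mRNAs had a median of 0.05, with 3 (23.1%) lower, *Eif3e* (-0.19), *Naca* (-0.10) and *Btf3* (-0.07), and 9 (69.2%) higher. This list overlaps with the initiation and elongation lists, so it does not add a separate set. *Eef1a1*, *Eef1b2*, *Eef1g*, *Eef2*, *Eif3e*, *Eif3f*, *Eif3h* and *Eif4b* were counted there already. Of the genes called higher, only *Hnrnpa1* and *Tpt1* were not. After subtraction of the length range median, this list and the members both had a median above 0, at 0.12 and 0.06. Of the 13, 12 then lay above 0, as did 57 of the 77 members.

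**Figure D4:**
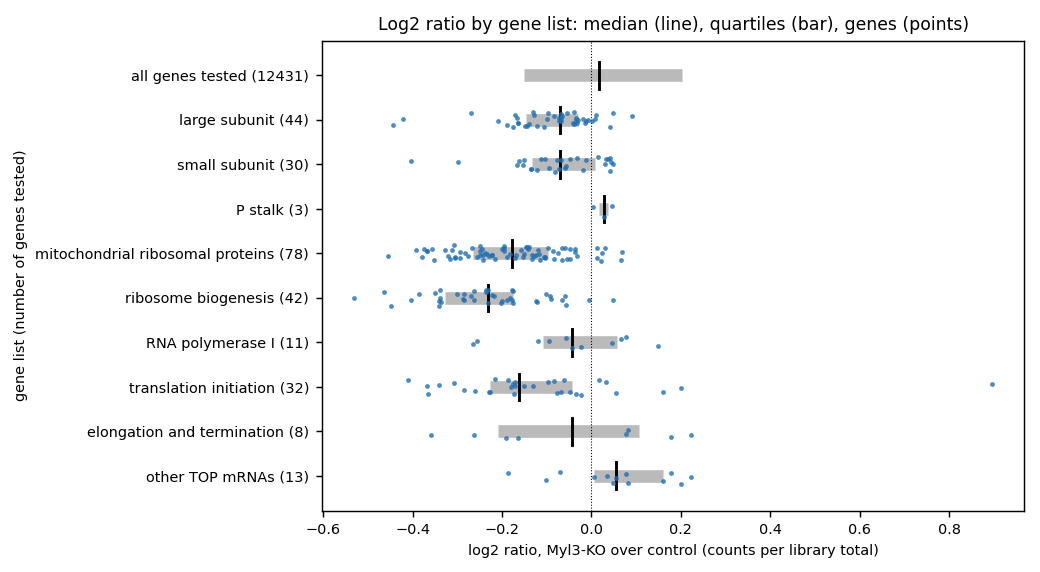
Log2 ratio of *Myl3*-KO over control (horizontal) by gene list (vertical, with the number tested), showing the median as a line, the quartiles as a bar and single genes as points, with no points drawn for all genes. Large and small subunit genes centre on -0.07 (0.05 and 0.06 after subtraction of the length range median), mitochondrial ribosomal protein genes on -0.18 and ribosome biogenesis genes on -0.23. The list of other TOP mRNAs shares genes with the initiation and elongation lists.

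Gene length moved with these ratios. The length implied by count and FPKM had a median of 718 bases over the 77 tested members and 2757 bases over the 10675 genes tested with a control FPKM of at least 1. Among other genes, the median log2 ratio was -0.18 at 500 to 750 bases (220 genes), -0.12 at 750 to 1000 bases (427 genes) and 0.08 above 5000 bases (1657 genes). Members of the same ranges had medians of -0.08 (30 genes) and -0.08 (20 genes). Short genes as a whole were thus lower in *Myl3*-KO, and members less so than others of their length. The quartiles of the other genes at 500 to 750 bases were -0.32 and -0.01, so the member median of that range lay between them. After subtraction of the median of other genes in the same range, 13 members were lower and 43 higher beyond counting error. These calls take the range median as exact. The share of other genes called after the same subtraction was not computed, so these counts have no background beside them. The lowest then were *Rpl27* (-0.26), *Rpl41* (-0.24), *Rps27l* (-0.22), *Rpl39l* (-0.15) and *Rps27a* (-0.12), the same 5 as before. The value of *Rpl27* is that of its own row, without its copy. Whether length or the genotype goes with the small shift of the members was not tested.

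**Figure D5:**
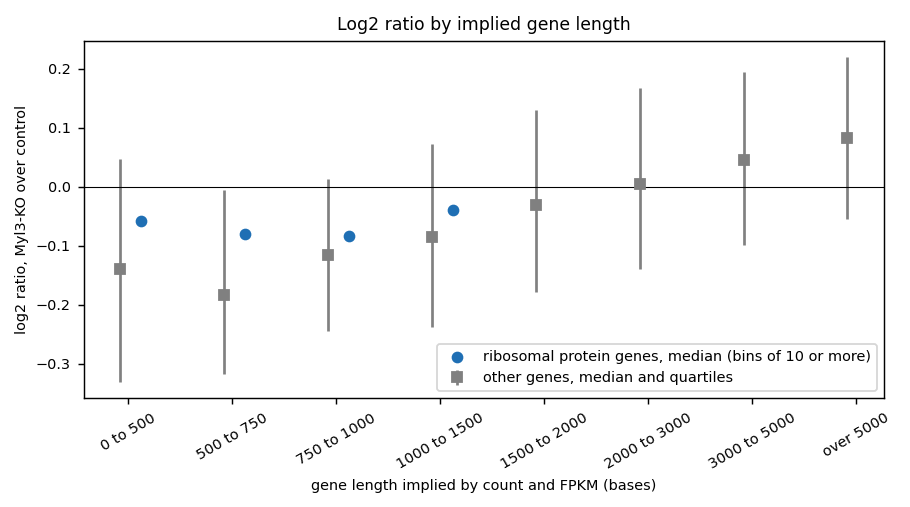
Median log2 ratio of *Myl3*-KO over control (vertical) by implied gene length in bases (horizontal) for other genes (squares, bars for the quartiles) and for members in ranges with at least 10 of them (circles). The squares climb from -0.18 at 500 to 750 bases to 0.08 above 5000 bases, and all 4 circles lie below 0 but above the square of their range.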

How the data were processed

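RNA was extracted from primary rib chondrocytes, 1 control and 1 *Myl3*-KO library, and prepared with a SMARTER kit per the labels, while the study's methods describe enrichment on oligo beads and random priming. The authors deposited an expected count per gene, with no normalization, and an FPKM value scaled by gene length and library. The submitters' processing notes name the builds GRCm38 and mm10, and the aligner, the counting tool and the use of strand are not given in the sources used here. The column headed NC was read as control because the other is headed KO.

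Log2 ratios were computed from unrounded counts with values under 3 raised to 3, and 95% Clopper-Pearson intervals from counts rounded to whole numbers. Intervals cover counting error only, since reads carry no molecular identifiers. With 1 library per genotype there are no residual degrees of freedom, so neither edgeR's quasi-likelihood test nor DESeq2's test could be fitted and no p-value is given. The library totals of 17612434.91 and 13477976.98 set the precision.

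The members, the gene lists and the comparisons were chosen with earlier results of these data known. Named genes are the 5 highest and 5 lowest ratios of each subunit with at least 100 counts, the highest and lowest FPKM, members of lists by role, members with few counts, and the 2 highest and 2 lowest of other lists. The copies, *Rps19* and *Btf3* fall outside this rule and were chosen after their values were seen. Lists of erythroid, muscle, endothelial and immune markers summed to at most 48.04 counts in a library.

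Copies were rows sharing at least 10% of 31-base words with a GENCODE M21 transcript of a member. Scaling factors came from edgeR 4.0.16 and DESeq2 1.42.0 under R 4.3.3, and all else from Python 3.11.15 (scipy 1.17.1, numpy 2.4.6), tested on simulated data. The alternatives were TMM and DESeq2 scaling, a total without the members, other filters on counts, 1 added count, the FPKM ratio, members with whole counts alone, and, added after seeing the data, a length correction and counts summed over copies. The values of 3 genes are not reported here.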

Additional observations from a re-analysis of the deposited data

How the results depend on the processing

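The median log2 ratio of the members lay between -0.09 and -0.07 under TMM factors, DESeq2 size factors, a library total without the members, the filters on low counts, 1 added count, the FPKM ratio, members with whole counts alone and counts summed over copies, and 0 members passed 2-fold under any alternative. Subtraction of the median of other genes of like length, chosen after seeing the data, turned the median to 0.058, with 13 members lower and 43 higher beyond counting error. The matching shares of other genes were not computed. With TMM factors 3 members were higher, and with DESeq2 size factors 3, since *Rpl10a* and *Rps9* then lay within counting error, while *Rpl5* became lower at -0.03 under both. The share of reads on the members was 7.14% in the control and 6.96% in *Myl3*-KO when the total left out the non-members among the 10 most abundant genes. It was 5.16% and 4.99% with members of whole counts alone, and 7.14% and 6.88% with copies summed. On the FPKM scale *Rpl15* (-0.18), *Rps15a* (-0.09) and *Rplp2* (-0.08) moved. With 1 library per genotype no replicate could be left out. No paired analysis was possible because each genotype has a single library. Few counts limit what can be said of *Rpl24*, with 78 and 54, and of *Rps18*, with 4.52 and 3. Why these genes had so few counts was not tested.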

Other observations

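Genes that govern how ribosomal protein mRNAs are translated had ratios on both sides of 0. Of 13 tested genes of the mTOR pathway and of TOP mRNA control, 6 (46.2%) were lower and 3 (23.1%) higher beyond counting error in *Myl3*-KO, beside 20.1% and 22.2% of all genes tested, so the share of higher genes was close to that of all genes. Their median log2 ratio was -0.0005. After subtraction of the length range median it was -0.07, with 9 of the 13 below 0 and 4 above. *Eif4ebp1*, a repressor of cap-dependent initiation, had 1587 and 909 counts and a log2 ratio of -0.42, and *Rheb*, which activates mTOR, had 2691 and 1609 counts and a ratio of -0.36. *Mtor* itself had 1334 and 1272 counts and a ratio of 0.32, and *Tsc2*, which restrains Rheb, a ratio of 0.23.

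Genes that respond to stalled or faulty ribosomes were mixed. Of 11 tested, 1 (9.09%) was lower, *Ltn1* (-0.29), a ligase that marks chains stuck on the ribosome. Another 4 (36.4%) were higher, among them *Gcn1l1* (0.26) and *Trp53* (579 and 545 counts, 0.30). Of all genes tested, 20.1% were lower and 22.2% higher. The ratios of this list were not set against genes of like length. *Nemf*, which works with *Ltn1*, had a ratio of -0.08.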
